A study of Rattus norvegicus with 6 samples.

Results

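The glycogen genes described here are 9 rat genes for the enzymes and the targeting protein that build glycogen and take it apart: Gyg1, Ugp2, Gys1, Gbe1, Pygb, Pygl, Pygm, Pgm1 and Ppp1r3c. They were found by their gene symbols in the array's probe table, and where a gene had several probe sets the brightest on average over the 6 arrays was to be kept. This gave 1 probe set for each of 8 genes, out of 14506 genes measured. Ppp1r3c, the scaffold that brings protein phosphatase 1 to glycogen, has no named probe set there and was not analysed here. Probe sets were thus to be chosen by their mean level, but none of the 8 genes had more than 1. The list itself was drawn up with earlier results of these data known, so its counts are given as a description.

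RNA came from neurospheres, floating clusters of cells cultured from the carotid body of adult rats, a small organ that senses blood oxygen. All cultures ran for 10 days in neural crest medium. The 3 differentiated-labelled arrays came from spheres kept at 3% oxygen with no mitogens. The 3 undifferentiated-labelled arrays came from spheres in normal oxygen with the mitogens EGF, FGF, ET-1 and IGF-1. Oxygen and mitogens changed together, so their effects cannot be told apart. The labels give no strain or sex, and no age beyond adult. Nothing in them shows that the 3 arrays of a group stem from independent cultures or animals, so every p-value reflects the spread among these arrays alone, which may be technical. The series was designed to compare molecular pathways between spheres enriched in neuronal cells and spheres enriched in undifferentiated cells.

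Glycogen is a branched store of glucose. Glycogenin primes a new particle, glycogen synthase lengthens its chains with glucose taken from UDP-glucose, and the branching enzyme moves short stretches to make branch points. Glycogen phosphorylase takes glucose units off as glucose 1-phosphate, which phosphoglucomutase turns into glucose 6-phosphate for glycolysis, and the same mutase supplies glucose 1-phosphate for synthesis. Several of these genes, among them GBE1, GYS1 and PPP1R3C, are known from human cells as genes induced by low oxygen.

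Values are the deposited ones, on a log2 scale, and a difference is the mean of the differentiated-labelled arrays minus the mean of the undifferentiated-labelled ones. Array medians lay between 5.05 and 5.13, and pairs of arrays correlated at 0.9857 to 0.9927 inside a group and 0.959 to 0.9696 across groups. Th, tyrosine hydroxylase of the catecholamine-making glomus cells, was lower by 2.86 in the differentiated-labelled arrays. Of 5 neuron markers 1 was higher and 2 were lower at a limma adjusted p under 0.05, against 14.7% and 14.9% of all genes. These values do not settle which group was richer in neuronal cells, and each group is therefore called by its label.

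The branching enzyme Gbe1 was much lower in the differentiated-labelled arrays, a 6.70-fold difference. The phosphorylase Pygb and the mutase Pgm1 were lower by a smaller amount, 1.61-fold and 1.46-fold. Glycogen synthase Gys1 and the UDP-glucose-making enzyme Ugp2 had nearly equal means in both groups. Of the 8 measured genes 3 fell, 0 rose and 5 did not pass at a limma adjusted p under 0.05 over all genes. At an unadjusted p under 0.05, 1 gene was higher, Gyg1. Of all genes, 29.5% passed in either direction, 14.9% lower and 14.7% higher. The 3 genes called, 37.5% of 8, were all falls, so their matching share of all genes is 14.9%. With only 8 genes, on a list drawn up with earlier results known, nothing about the list was concluded from this share. The median difference of the 8 genes was -0.26, against 0.0597 for all 14506 genes. All 9 measured glomus cell markers were lower too, with a median difference of -2.86. In whole spheres, fewer cells of a type and less RNA per cell cannot be told apart, and the part of glomus cells in these falls was not tested.

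**Figure D1:**
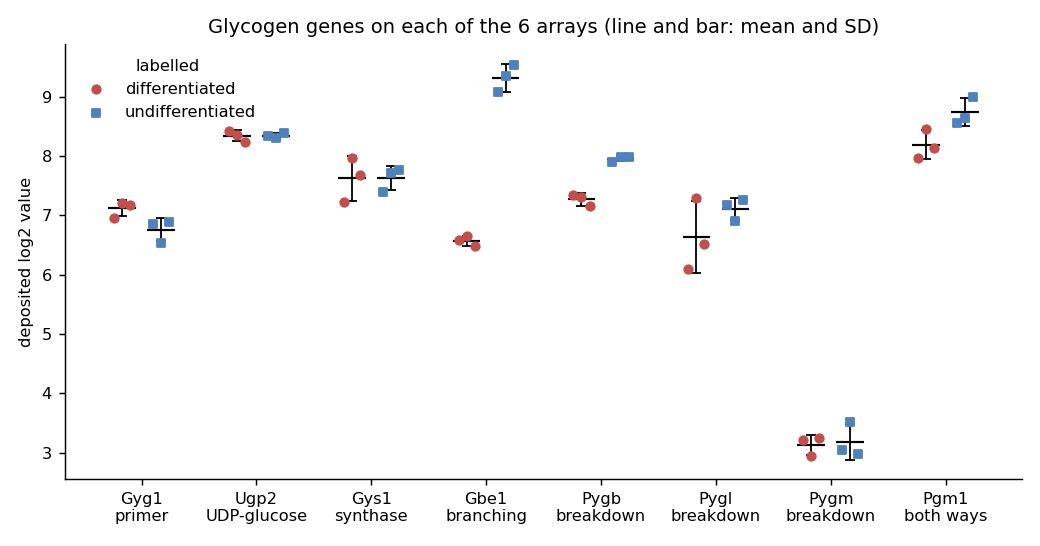
Deposited log2 values (vertical axis) of the 8 measured glycogen genes on the 3 differentiated-labelled arrays (red circles) and the 3 labelled undifferentiated (blue squares), with the mean (line) and SD (bar) of each group. The groups stand far apart for Gbe1, at 6.48 to 6.65 in the differentiated-labelled arrays and 9.07 to 9.54 in the undifferentiated-labelled ones, and overlap for Gys1, Ugp2, Pygl and Pygm.

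Gyg1, glycogenin, the protein that primes each glycogen particle by attaching glucose to itself, read 6.96, 7.21 and 7.18 in the differentiated-labelled arrays, against 6.86, 6.53 and 6.88 in the undifferentiated-labelled ones. All 3 differentiated-labelled arrays lay above the other 3, by as little as 0.08 between the nearest pair. The difference of 0.36 ± 0.13 (SE) did not pass (limma adjusted p = 0.0528). It passed with quantile normalization (adjusted p = 0.026), after dim genes were dropped (adjusted p = 0.042) and when differentiated replicate 1 was left out (0.44, adjusted p = 0.0393). It did not pass under the other 10 alternatives, with adjusted p = 0.0523 to 0.178, the last without undifferentiated replicate 2 (0.25).

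Ugp2, UDP-glucose pyrophosphorylase, makes the glucose donor of synthesis. It read 8.42, 8.36 and 8.24 in the differentiated-labelled arrays, against 8.34, 8.30 and 8.38 in the undifferentiated-labelled ones. The arrays of the groups interleaved, and the difference was 0.00152 with a 95% interval of -0.20 to 0.21 (limma adjusted p = 0.994).

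Gys1 is the glycogen synthase of muscle and most other tissues. It read 7.22, 7.96 and 7.68 in the differentiated-labelled arrays, against 7.40, 7.72 and 7.76 in the undifferentiated-labelled ones. The differentiated-labelled arrays held both the lowest and the highest of the 6 values. The difference was -0.00419, with a 95% interval of -0.39 to 0.38 (limma adjusted p = 0.99), wider than that of Ugp2. Gys2, the synthase known from liver, read between 2.31 and 2.78 on the 6 arrays, below each array's lower quartile, and did not pass (0.11, adjusted p = 0.69).

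Gbe1, the only known branching enzyme of glycogen in mammals, read 6.59, 6.65 and 6.48 in the differentiated-labelled arrays, against 9.07, 9.34 and 9.54 in the undifferentiated-labelled ones. Every differentiated-labelled array lay at least 2.42 log2 units below every undifferentiated-labelled array. The mean was 6.57 ± 0.09 (SD, n = 3) in the differentiated-labelled arrays and 9.32 ± 0.24 (SD, n = 3) in the undifferentiated-labelled ones. Gbe1 fell by 2.74 ± 0.12 (SE), with a 95% interval of -3.02 to -2.47 (limma adjusted p = 7.7e-08). This placed it at rank 67 among all falls by size. The difference ran from -2.87 to -2.63 when each array was left out.

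Pygb, the phosphorylase form known from brain, releases glucose 1-phosphate from glycogen. It read 7.35, 7.30 and 7.15 in the differentiated-labelled arrays, against 7.90, 7.99 and 7.98 in the undifferentiated-labelled ones. The groups did not overlap and each was tight. Pygb fell by 0.69 ± 0.10 (SE, limma adjusted p = 0.000275), and by 0.63 to 0.73 when each array was left out.

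Pygl, the phosphorylase form known from liver, varied most among the differentiated-labelled arrays. It read 6.10, 7.29 and 6.51 there, against 7.17, 6.90 and 7.25 in the undifferentiated-labelled arrays. Differentiated replicate 2 was the highest of all 6 arrays, and the other 2 arrays of its group were the lowest. The difference of -0.47 ± 0.24 (SE) did not pass (limma adjusted p = 0.183). It was -0.80 and passed without differentiated replicate 2 (adjusted p = 0.00234), and it was -0.21 without differentiated replicate 1 (adjusted p = 0.539). Differentiated replicate 2 also had the highest mean over 6 macrophage and leukocyte markers, at 7.96, against 7.26 and 7.22 in the other 2 differentiated-labelled arrays and 7.80, 7.56 and 7.16 in the undifferentiated-labelled ones. Of these 6 markers 1 rose, Tyrobp, and 1 fell, Cd74, or 33.3% called, near the 29.5% of all genes. The part of these cells in the Pygl values was not tested.

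Pygm, the phosphorylase form of skeletal muscle, was dim. It read 3.21, 2.94 and 3.25 in the differentiated-labelled arrays, against 3.04, 3.52 and 2.98 in the undifferentiated-labelled ones. On 5 of the 6 arrays it lay below the array's lower quartile, and whether it stood above background is not known here. The difference was -0.0443, with a 95% interval of -0.44 to 0.35 (limma adjusted p = 0.885). Of 8 skeletal muscle markers 1 rose, Myh1, and 0 fell, or 12.5% called, against 29.5% of all genes. Their mean level was 4.66 to 4.79 in the differentiated-labelled arrays and 4.37 to 4.59 in the undifferentiated-labelled ones.

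Pgm1, the phosphoglucomutase that serves both directions of glycogen metabolism, read 7.97, 8.46 and 8.14 in the differentiated-labelled arrays, against 8.56, 8.64 and 9.0 in the undifferentiated-labelled ones. The groups did not overlap, though the nearest pair was 0.10 apart. Pgm1 fell by 0.55 ± 0.15 (SE, limma adjusted p = 0.0166). The call was lost without differentiated replicate 1 (-0.44, adjusted p = 0.0675), differentiated replicate 3 (-0.52, adjusted p = 0.0559) and undifferentiated replicate 3 (-0.41, adjusted p = 0.0742).

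In 3 of the 8 genes, Gbe1, Pygb and Pgm1, all differentiated-labelled arrays lay below the others, and in 1, Gyg1, all lay above. Over all genes 42.3% had groups that did not overlap, 19.8% lower and 22.5% higher in the differentiated-labelled arrays.

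**Figure D2:**
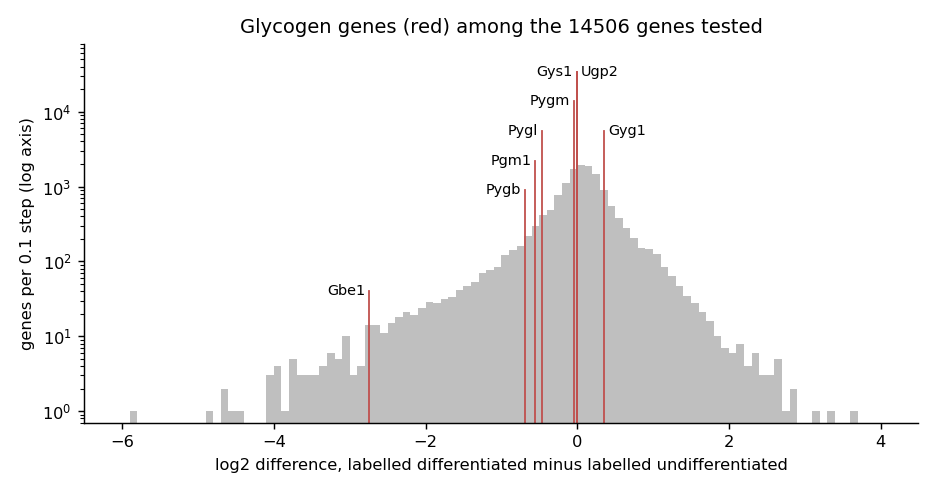
The grey histogram counts the 14506 genes by their log2 difference, labelled differentiated minus labelled undifferentiated, in steps of 0.1 (vertical log axis). Red lines mark the 8 glycogen genes, their heights serving only to separate the names. Gbe1 at -2.74 lies in the sparse lower tail, and the other 7 lie between -0.69 and 0.36.

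The phosphorylase forms could be compared only in how they changed, since values of different probe sets are not on a common scale. The within-array difference Pygl minus Pygb was -1.26, -0.01 and -0.64 in the differentiated-labelled arrays, against -0.73, -1.09 and -0.72 in the undifferentiated-labelled ones. The groups overlapped, and the difference of 0.21 had an exact two-sided permutation p = 0.7 (adjusted p = 0.7 over 3 pairs of forms), in a test whose smallest possible p with 3 against 3 arrays is 0.1. It was 0.52 without differentiated replicate 1, -0.10 without differentiated replicate 2 and 0.09 without undifferentiated replicate 2. The pairs with Pygm are not read here, since Pygm was dim and not shown to stand above background.

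Hypoxia-inducible factors are known to bind the short cores ACGTG and GCGTG. The 250 bases before each gene's start in RefSeq's GRCr8 annotation were searched for both cores on both strands. The promoters of the 3 genes that fell, of Gyg1, whose arrays were all higher, and of Ugp2, whose means were nearly equal, are shown so that these groups can be set side by side. They are written 5′ to 3′ on the gene's strand, with the cores in capitals, where CACGT and CACGC are the cores on the opposite strand. The windows are chr11:22181026-22181275 (plus strand) for Gbe1, chr3:160071891-160072140 (plus) for Pygb, chr5:119710484-119710733 (plus) for Pgm1, chr2:104582778-104583027 (minus) for Gyg1 and chr14:99698003-99698252 (minus) for Ugp2.
Gbe1: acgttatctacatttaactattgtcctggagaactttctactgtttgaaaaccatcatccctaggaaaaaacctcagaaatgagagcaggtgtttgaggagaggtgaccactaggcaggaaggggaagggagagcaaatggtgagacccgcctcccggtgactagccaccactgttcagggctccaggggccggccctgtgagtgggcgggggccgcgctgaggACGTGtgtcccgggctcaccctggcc
Pygb: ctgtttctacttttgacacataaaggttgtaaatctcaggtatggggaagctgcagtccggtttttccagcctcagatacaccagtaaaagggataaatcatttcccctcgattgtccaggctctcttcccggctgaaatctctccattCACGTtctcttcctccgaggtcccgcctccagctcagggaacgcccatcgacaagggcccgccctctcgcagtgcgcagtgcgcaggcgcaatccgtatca
Pgm1: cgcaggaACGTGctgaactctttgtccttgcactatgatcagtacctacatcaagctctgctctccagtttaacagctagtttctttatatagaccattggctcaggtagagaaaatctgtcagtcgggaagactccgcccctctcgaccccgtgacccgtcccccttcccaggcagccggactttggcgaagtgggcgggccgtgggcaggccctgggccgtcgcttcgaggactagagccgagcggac
Gyg1: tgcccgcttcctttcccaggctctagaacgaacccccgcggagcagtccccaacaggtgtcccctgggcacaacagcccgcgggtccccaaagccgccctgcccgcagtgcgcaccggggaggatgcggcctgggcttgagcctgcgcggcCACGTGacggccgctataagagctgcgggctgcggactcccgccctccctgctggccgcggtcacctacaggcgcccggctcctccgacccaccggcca
Ugp2: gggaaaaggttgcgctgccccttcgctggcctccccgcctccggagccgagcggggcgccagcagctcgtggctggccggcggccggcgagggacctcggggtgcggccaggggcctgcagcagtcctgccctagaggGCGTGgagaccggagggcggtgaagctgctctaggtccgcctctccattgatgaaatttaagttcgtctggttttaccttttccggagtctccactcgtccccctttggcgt
Gbe1 had its single ACGTG starting 26 bases before the start, Pygb a single ACGTG 101 bases before it on the opposite strand, and Pgm1 a single ACGTG 243 bases before it. Gyg1 held CACGTG, which reads as ACGTG on both strands and was counted as 2 overlapping cores, and Ugp2 held 1 GCGTG 112 bases before its start. A core was present in all 9 of the 9 promoters, Ppp1r3c included with 7 counted over both strands, against 36.7% of all 33469 promoters and 46.9% of those of genes on the array. Ppp1r3c, like Gyg1, held a CACGTG that was counted as 2 of its cores. The 9 windows were 53.6 to 72.4% G and C. Both cores hold the letters CG, and the G and C share of the other promoters was not measured. The shares with a core are therefore not matched for base content. The core was thus present in genes that fell, in Gyg1 and in Ugp2 alike, and a match is a description of the letters, not of binding.

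The rest of glycogen metabolism was described with 4 further lists, written with earlier results of these data known, of which 37 of 46 genes were measured. Of these 37 genes 4 rose and 12 fell, against background shares of 14.7% and 14.9%, and the median difference was -0.072. Besides Gbe1, the largest fall in these lists was that of Gaa, the lysosomal acid alpha-glucosidase that degrades glycogen outside the phosphorylase route. Gaa read 8.11, 8.47 and 8.34 in the differentiated-labelled arrays, against 10.72, 10.75 and 10.80 in the undifferentiated-labelled ones. It fell by 2.45 ± 0.11 (SE, limma adjusted p = 6.78e-08), a 5.47-fold difference.

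Among the 7 measured genes of the list of other synthesis and breakdown enzymes 3 fell and 1 rose. That is 57.1% called, against 29.5% of all genes. Pgm2l1, which makes glucose 1,6-bisphosphate, the activator of phosphoglucomutase, fell by 1.24 ± 0.10 (SE, limma adjusted p = 4.79e-06). Epm2a, the glycogen phosphatase laforin, fell by 0.50 (adjusted p = 0.0367), a call lost without differentiated replicate 1 (-0.34, adjusted p = 0.126) or any 1 of the 3 undifferentiated-labelled arrays (adjusted p = 0.0565 to 0.126). Stbd1, which tethers glycogen to membranes, rose by 0.39 (adjusted p = 0.0337). That call was lost when any 1 of the 6 arrays was left out (0.36 to 0.42, adjusted p = 0.052 to 0.0872), and with median centring (adjusted p = 0.0524).

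Among 17 phosphatase subunits and kinases 6 fell and 1 rose, or 41.2% called, against 29.5% of all genes. Ppp1r3b, a glycogen-targeting subunit of protein phosphatase 1 of the same family as Ppp1r3c, read 5.93, 5.97 and 5.62 in the differentiated-labelled arrays, against 6.86, 6.48 and 7.08 in the undifferentiated-labelled ones. It fell by 0.97 ± 0.16 (SE, limma adjusted p = 0.000828). The AMP-activated kinase subunits moved both ways. The catalytic Prkaa2 fell by 1.23 (adjusted p = 0.000471) and the regulatory Prkag2 by 1.18 (adjusted p = 0.000325), while the regulatory Prkag1 rose by 0.64 (adjusted p = 0.00105). Gsk3a and Gsk3b, the kinases that inhibit glycogen synthase, differed by 0.11 and -0.0339 and did not pass (adjusted p = 0.549 and 0.838). Gsk3a, Gsk3b, Gys2, Myh1, Tyrobp, Cd74, Nefl, Map2, Snap25, Tubb3, Nefm, Dbh, Slc18a2 and Cox4i2 were named after their values were seen.

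Glucose entry and the branches from UDP-glucose were mixed. Of 9 genes of glucose 6-phosphate supply and release 2 fell and 1 rose, or 33.3% called, against 29.5% of all genes. The glucose transporters Slc2a1 and Slc2a3 fell by 1.18 ± 0.13 (SE, limma adjusted p = 4.43e-05) and 0.91 ± 0.14 (adjusted p = 0.000439), while the hexokinase Hk2, which makes glucose 6-phosphate, rose by 0.65 ± 0.16 (adjusted p = 0.00854). Of 4 genes of the UDP-sugar branch 1 rose and 1 fell. Ugdh, which turns UDP-glucose into the UDP-glucuronate used for matrix glycans, rose by 0.92 ± 0.13 (SE, adjusted p = 0.000297), and Ugcg, which uses UDP-glucose for glycosphingolipids, fell by 0.69 ± 0.13 (adjusted p = 0.00225).

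**Figure D3:**
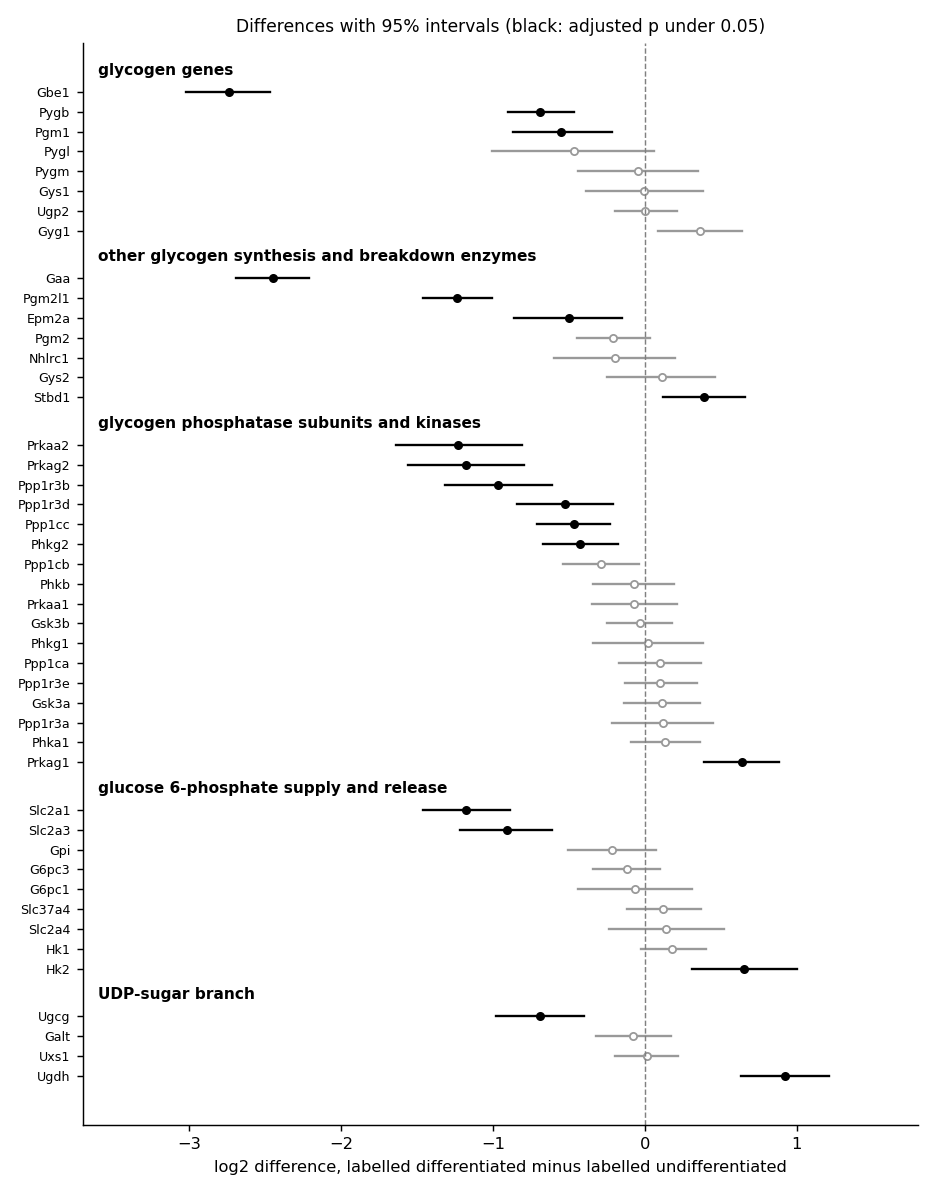
Log2 differences, labelled differentiated minus labelled undifferentiated (horizontal axis), of the 8 glycogen genes and 37 further genes of glycogen and glucose metabolism, with 95% intervals from limma. Black filled points passed at an adjusted p under 0.05 and grey open ones did not. Gbe1 at -2.74 and Gaa at -2.45 lie far to the left of the rest, and the largest rise is that of Ugdh at 0.92.

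Cell type markers were read against the 29.5% of all genes that passed in either direction. The 9 measured glomus cell markers, all of which fell, had a mean level of 7.42 to 7.99 in the differentiated-labelled arrays, against 10.59 to 10.81 in the undifferentiated-labelled ones. Of 7 markers of mesenchymal progenitors and fibroblasts 6 rose, with a mean level of 10.88 to 10.95 in the differentiated-labelled arrays, against 9.54 to 9.93 in the undifferentiated-labelled ones. Of the other lists, neurons had 1 rise and 2 falls among 5 markers, glia 1 rise among 4, smooth muscle and pericytes 2 rises and 1 fall among 5, hepatocytes 1 rise among 4 and adipocytes 1 fall among 4. Differences of the glomus markers ran from -4.65 (Dbh) to -1.93 (Slc18a2). Dbh was the most scattered of them, at 5.79, 9.03 and 7.04 in the differentiated-labelled arrays, and the next largest fall was -3.5 (Cox4i2). This range is wide and holds Gbe1 at -2.74 and Gaa at -2.45. Pygb and Pgm1 fell by less, at -0.69 and -0.55. Whether Gbe1, Gaa, Pygb or Pgm1 fell with the glomus cells was not tested. Of the hypoxia-inducible factors, Epas1 fell by 2.45 (limma adjusted p = 1.55e-07) and Hif1a rose by 1.72 (adjusted p = 6.96e-07) in the differentiated-labelled arrays. The labels give 3% oxygen for that group. Gbe1 and Gys1, named above as induced by low oxygen in human cells, differed by -2.74 and -0.00419. The part of oxygen in any of these differences was not tested.

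**Figure D4:**
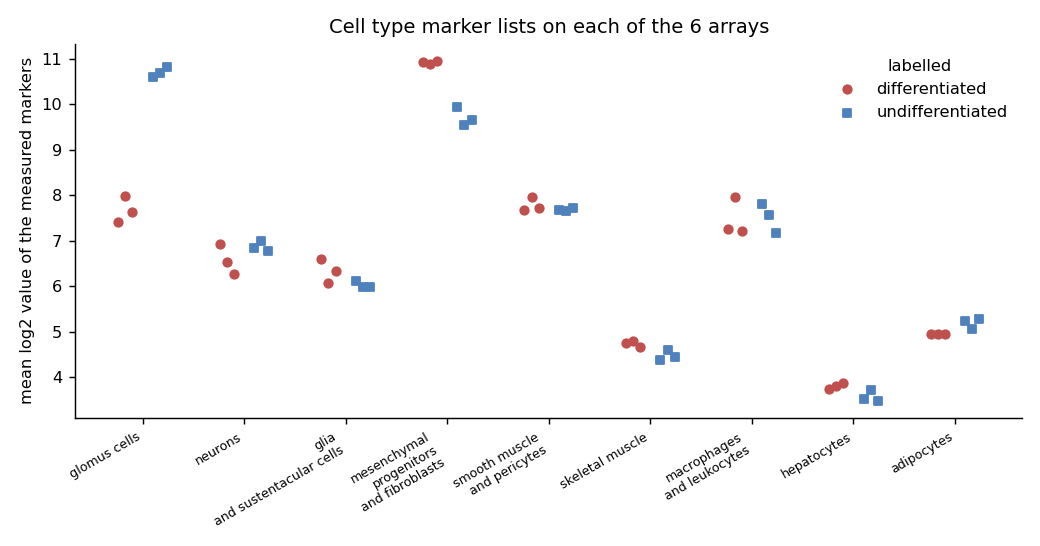
Mean log2 value of the measured markers of 9 cell types (vertical axis) on the 3 differentiated-labelled arrays (red circles) and the 3 labelled undifferentiated (blue squares). The glomus cell list is lower on every differentiated-labelled array, at 7.42 to 7.99, against 10.59 to 10.81 on the undifferentiated-labelled arrays, and the mesenchymal list is higher. The macrophage and leukocyte list is highest on differentiated replicate 2, at 7.96.

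The genes whose pattern lay nearest to that of Gbe1 were found by the Euclidean distance between log2 values over the 6 arrays, each gene centred on its own mean. Syt13, a member of the synaptotagmin family, lay at a distance of 0.18 and fell by 2.74, the orphan receptor Gpr139 at 0.20 and fell by 2.77, and the glutathione transferase Gstm1 at 0.21 and fell by 2.68. Nearest to Gyg1, the glycogen gene with the largest positive difference of the 8, were the repressor Bcl6 and the annexin Anxa11, both at 0.08, and Noc2l at 0.09, with differences of 0.36, 0.37 and 0.29. The measure covers 6 arrays in 2 groups and so mostly follows the difference between the groups.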

How the data were processed

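RNA of 6 samples, labelled from 100 ng each, was measured on 6 Affymetrix arrays, per the protocols in the labels. Log2 values of 29214 probe sets were deposited by the authors. The log2 base was inferred from their range. How the authors corrected, normalized and summarized the signals is not stated in the labels. The values were used as deposited.

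Genes were assigned through the platform's probe table: 15310 had 1 gene symbol, 323 had several, and the other 13581 had no entry and stay unnamed. Of those with 1 symbol, 99.8% matched the rat gene table by gene ID. The probe set of highest mean represented each of 14506 genes.

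One limma 3.58.1 fit in R 4.3.3 (lmFit, eBayes with a mean-variance trend) over all genes and arrays gave the differences, two-sided, with Benjamini-Hochberg adjustment over all genes at 0.05. It was also run on simulated data with independent values, which cannot show whether the real arrays are independent. The number of arrays limits the precision. Promoters came from RefSeq's GRCr8 table. Figures used matplotlib 3.10.9 in Python 3.11.15.

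The members and lists were chosen with earlier results of these data known. All 8 measured members are named; of each other list, up to 3 genes of smallest p called in each direction; and 3 genes nearest the members of largest fall and rise. The fit was repeated with quantile normalization, with median centring, with replicate numbers as a block, with the mean or the most variable of a gene's probe sets, without dim genes (means up to 4.44, the 40th percentile over probe sets), with no trend in eBayes, and without each array.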

Additional observations from a re-analysis of the deposited data

How the results depend on the processing

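The falls of Gbe1 and Pygb passed under all 13 alternatives tried. The number of glycogen genes called lower was 3 under each alternative that kept all arrays and 2 to 4 when an array was left out, and the number called higher was 1 rather than 0 with quantile normalization, with dim genes left out (in both cases Gyg1), and 0 to 1 when an array was left out. The other pathway genes gave 3 to 4 rises and 10 to 13 falls. With dim genes left out Pygm gave no value. The replicate numbers gave correlations of deviations of 0.12, 0.12 and 0.00 between same-numbered arrays, and differentiated replicate 3 did not correlate best with its own number, so they were not taken to pair them; with the replicate number as a block 3 glycogen genes were called lower and 0 higher, the numbers for all genes were 2192 lower and 2238 higher, and Stbd1 lost its call (adjusted p = 0.0589). Differences near 0 changed sign, which carries no direction: Gys1 was 0.0376 with quantile normalization and -0.17 to 0.20 when an array was left out, Ugp2 was -0.0276 with median centring and -0.039 to 0.0523 when an array was left out, and Pygm ran from -0.14 to 0.13. No detection call was used here for dim probe sets, which limits what can be said of Pygm and Gys2.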
